A study of Mus musculus with 768 samples.

Results

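The genes of the mitochondrial respiratory chain and of ATP synthase were followed in single Schwann cells (SCs), which ensheath the axons of peripheral nerves. The cells were taken from the sciatic nerve of mice at P60 (60 days after birth). The genes were chosen by symbol, namely all genes that begin with Ndufa, Ndufb, Ndufc, Ndufs, Ndufv, Uqcr, Cox4i, Cox5, Cox6, Cox7, Cox8, Atp5 or mt-, together with Sdha, Sdhb, Sdhc and Sdhd. This gave 106 of the 25700 genes in the count table, of which 93 are encoded in the nucleus and 13 are mRNAs of the mitochondrial genome. The nuclear genes comprised 36 subunits and 8 assembly factors of complex I, the 4 subunits of complex II, 8 subunits of complex III, 19 subunits of complex IV including tissue-restricted isoforms, and 16 subunits of complex V (ATP synthase), besides the supercomplex factor Cox7a2l and the coupling factor Atp5s. The rRNAs and tRNAs of the mitochondrial genome were not analysed here.

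All cells came from untreated mice that carried a beta-actin dsRed transgene and expressed eYFP after recombination by a Cre that is active in the SC lineage, and eYFP-positive cells were sorted 1 per well into 384-well plates. Each of the 2 plates held cells from separate animals, with male and female mice pooled, so the plate was the replicate. With plate as a block, p-values rest on how the class difference varies between these 2 pools. The test also draws the variance of each gene toward a trend over all genes. No cell name was shared by the plates. Libraries were made with Smart-Seq2, which reads full-length cDNA. Molecules carry no identifier in this method, so each count is a read.

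The respiratory chain passes electrons from NADH (at complex I) or succinate (at complex II) over complexes III and IV to oxygen, and the proton gradient it builds drives ATP synthase. Complex II is encoded in the nucleus alone, whereas complexes I, III, IV and V combine nuclear-encoded subunits with a few subunits translated inside mitochondria from the mitochondrial genome. Mature SCs either wrap 1 large axon in myelin (myelinating SCs, mSCs) or ensheath bundles of small axons (non-myelinating, Remak SCs, nm(R)SCs), and mitochondrial function of SCs is known to matter for the axons they contact.

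The table held 768 cells, 384 per plate, with 74280540 gene-assigned reads for plate 1 and 209404659 for plate 2. A minimum of 1500 detected genes left 674 cells, and clustering without the respiratory chain genes and without other mitochondrial lists split them into 5 clusters. The mSC-like class comprised cluster 1 with 135 cells and cluster 3 with 119. The nm(R)SC-like class comprised cluster 0 with 245 cells, cluster 2 with 122 and cluster 4 with 53. Cluster 4 had 2 cell-cycle genes, H2afz and Cdc20, and 1 naming marker of its class among its 10 leading genes. Over the cells of both plates together its median depth was 0.377 of that of the plate. By plate, cluster 4 had medians of 262900 reads (plate 1) and 119300 reads (plate 2). The other clusters had 111600 to 192600 and 432600 to 646600. Cell cycle genes summed to 28800 CPM in cluster 4 of plate 1 and to 2280 CPM in plate 2, against 785 to 2070 CPM in the other clusters. Without cluster 4, 0 respiratory chain genes were called as well, and the log2 ratios of the sums described below were 0.00 and 0.11 (nuclear) and −0.09 and 0.59 (mitochondrial). Skeletal muscle and heart markers summed to between 3.30 and 8.27 CPM (the usual count unit scaled to a common library total) over 12 genes in the plate and class sums, 6 of them without a read, and the 7 fat cell markers to between 0 and 0.0281 CPM with 6 without a read. Immune cell markers were at 9.38 to 36.9 CPM over 8 genes, and endothelial markers at 1.99 to 98.9 CPM over 8 genes, higher in the mSC-like sums of both plates, as were pericyte and smooth muscle markers at 5.70 to 111 CPM over 8 genes, 2 of them without a read. Fibroblast and perineurial markers were at 1110 to 2700 CPM, red blood cell genes at 0.0347 to 3.07 CPM and cell cycle genes at 909 to 5190 CPM. In 3 of these lists 1 gene was called higher in mSC-like cells, namely Stmn1 (log2 ratio 1.47), Egfl7 (4.92) and Tagln (4.38), and their part in the results below was not tested. The 11 mSC naming markers summed to 6560 and 7440 CPM in nm(R)SC-like and to 65600 and 68700 CPM in mSC-like sums, and the 9 nm(R)SC markers to 3550 and 2690 CPM and to 385 and 308 CPM. Different clusters held most of the mSC-like class in the plates. Cluster 3 held 97 of its 171 cells in plate 1 and 22 of its 83 cells in plate 2, and its 10 leading genes included no naming marker. The nm(R)SC-like class held 169 and 251 cells.

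To compare the complexes between myelinating and non-myelinating cells, the reads of each class were added up within each plate (4 sums). At this level nuclear-encoded subunits differed little between the classes. The 83 subunits together took 1.921% (nm(R)SC-like) and 1.868% (mSC-like) of the reads in plate 1, and 1.381% and 1.432% in plate 2. The log2 ratio of mSC-like over nm(R)SC-like was −0.04 in plate 1 and 0.05 in plate 2, 0.01 ± 0.07 (mean ± SD, n = 2 plates). The mean lay within the spread between the plates. The median CPM ratio of all genes tested was −0.20 (log2) in each plate. Fitted ratios below are corrected for such a shift, and their median over all genes was −0.09.

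Complex I, the entry point for electrons from NADH, had 36 nuclear-encoded subunits, whose sum in plate 1 was 6796 CPM (nm(R)SC-like) against 7221 CPM (mSC-like), and in plate 2 was 5494 against 5592 CPM. Its 7 core subunits, which carry the flavin and iron-sulfur centres, stood at 1332 and 1725 CPM in plate 1 and at 1487 and 1734 CPM in plate 2, a mean log2 ratio of 0.30 ± 0.11 (SD, n = 2). The 29 accessory subunits, which surround the core, gave −0.02 ± 0.04. Ndufv2, described below, carried the ratio of the core subunits. Without it the other 6 summed to 949.1 and 1028 CPM in plate 1 and to 1213 and 1192 CPM in plate 2, log2 ratios of 0.12 and −0.03.

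Complex II (succinate dehydrogenase) also serves the citric acid cycle. Its 4 genes summed in plate 1 to 757.8 CPM (nm(R)SC-like) against 709.5 CPM (mSC-like), and in plate 2 to 876.0 against 649.0 CPM. The mean log2 ratio was −0.26 ± 0.24 (SD, n = 2). Complex II was the only complex whose nuclear sum was lower in mSC-like cells in both plates, with log2 ratios of −0.09 and −0.43. The median CPM ratio of all genes tested was −0.20 (log2) in each plate. In fitted log2 ratios, the median of the 4 genes was −0.11 and that of all genes −0.09. In CPM, Sdha and Sdhd were lower in mSC-like cells in both plates, and Sdhb and Sdhc were not. The flavoprotein subunit Sdha was at 224.4 and 150.6 CPM in plate 1 and at 218.4 and 215.1 CPM in plate 2 (nm(R)SC-like first). The iron-sulfur subunit Sdhb was at 220.2 and 231.6 CPM in plate 1 and at 301.8 and 201.0 CPM in plate 2. The membrane anchor Sdhc was at 171.6 and 213.4 CPM in plate 1 and at 84.64 and 65.45 CPM in plate 2. The other anchor, Sdhd, was lower in mSC-like cells of both plates, at 141.5 and 113.9 CPM and at 271.1 and 167.4 CPM. None of the 4 passed the test, with fitted log2 ratios from −0.33 to 0.14 and intervals from −1.13 to 1.01.

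Complex III, which hands electrons from ubiquinol to cytochrome c, had 8 nuclear-encoded genes at 2060 and 2062 CPM in plate 1 and at 1631 and 1804 CPM in plate 2. Complex IV (cytochrome c oxidase), which reduces oxygen, stood at 4015 and 3847 CPM in plate 1 and at 2091 and 2299 CPM in plate 2. ATP synthase stood at 5580 and 4839 CPM in plate 1 and at 3720 and 3970 CPM in plate 2. The mean log2 ratios were 0.07 ± 0.10, 0.04 ± 0.14 and −0.06 ± 0.21 (SD, n = 2), each within its spread. The 8 complex I assembly factors, which build the complex without staying in it, were low, at 230.6 to 342.5 CPM in the 4 sums, with ratios of −0.15 and 0.57. In each plate the difference between the classes was smaller than the difference between the plates for complexes I, III, IV and V.

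**Figure D1:**
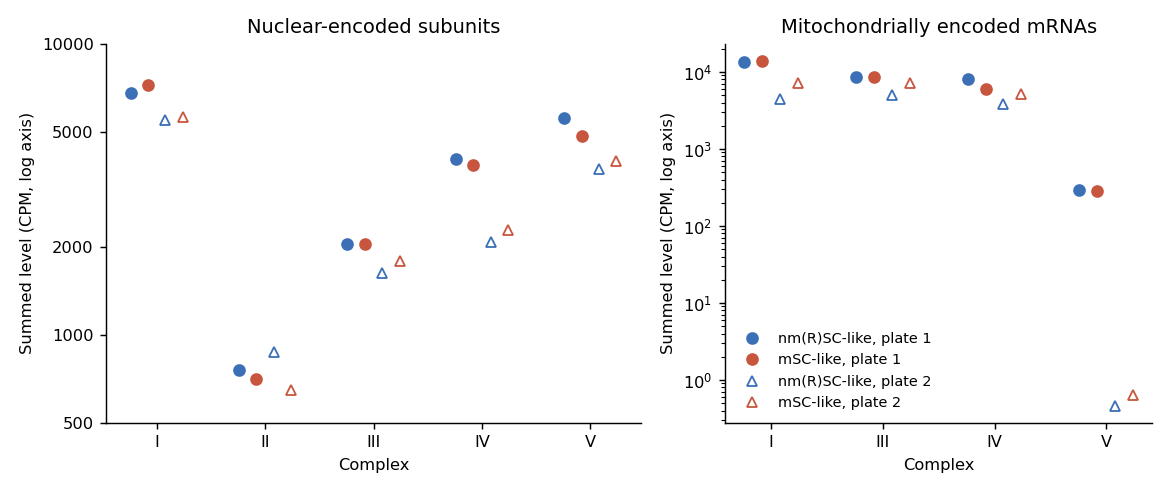
Summed level of the nuclear-encoded subunits (left) and of the mitochondrially encoded mRNAs (right) of each complex, in CPM on log axes, in nm(R)SC-like (blue) and mSC-like (red) cells of plate 1 (filled circles) and plate 2 (open triangles). Nuclear-encoded sums of the 2 classes lie close together within a plate, and the mitochondrial sums of complexes I, III and IV of plate 2 are higher in mSC-like cells (complex I at 7189 against 4480 CPM), while in plate 1 those of III and IV are not.

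Gene by gene, no respiratory chain gene was called. Of the 106 genes, 98 had enough reads for the test between the classes (87 nuclear, 11 mitochondrial), and 0 of them passed an adjusted p of 0.05 in edgeR's quasi-likelihood test with plate as a block, while 3.72% of all 13134 genes tested did (1.93% higher and 1.79% lower in mSC-like cells). At an unadjusted p under 0.05 the count was 1, Ndufv2 (all genes 12.7%), and DESeq2 on the same sums called 1, also Ndufv2, where it called 12.4% of all genes. The test had 2 plates and 1 residual degree of freedom, and variances were moderated over all genes. It bears on class differences that exceed their variation between these pools of mice, as estimated with the help of all genes. The intervals use the same variances. For 32 of the 77 nuclear-encoded subunits tested, the 95% interval of the fitted ratio lay wholly within 1 of 0 on the log2 scale, and for 75 within 2. Of the 87 nuclear genes 60 had a fitted ratio above 0 (all genes 46.8%), with a median log2 ratio of 0.17. Among subunits those above 0 were 23 of 36 in complex I, 1 of 4 in complex II, 8 of 8 in complex III, 9 of 13 in complex IV and 12 of 16 in ATP synthase. Over the alternatives the count for nuclear genes ran from 48 (minimum of 1000 genes) to 68 (only clusters with a leading marker). Their median log2 ratio in these settings was 0.04 and 0.32. Without the correction for the shift, 22 of the 77 subunits had a higher CPM in mSC-like cells in both plates (all genes 25.0%) and 16 a lower one (all genes 36.0%).

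Ndufv2, a core subunit that carries an iron-sulfur centre beside the flavin site of complex I, had the highest fitted ratio among nuclear subunits. It lies on chromosome 17 (66078638 to 66101559, minus strand, GRCm38) and shares no 50-base stretch with another annotated gene. In plate 1 its level was 383.0 CPM (nm(R)SC-like) against 696.9 CPM (mSC-like), and in plate 2 it was 273.5 against 542.0 CPM. It was thus higher in mSC-like cells in both plates, 1.82-fold and 1.98-fold. Cells with a read of it numbered 146 of 169 (plate 1) and 193 of 251 (plate 2) for nm(R)SC-like and 157 of 171 and 72 of 83 for mSC-like cells, and the cell with most reads held 4.65% of them. The fitted log2 ratio was 1.10 ± 0.33 (SE), with a 95% interval of 0.37 to 1.82, which did not pass the correction over all genes (edgeR adjusted p = 0.12, and 0.0135 with DESeq2 to 0.468 over the alternatives). Both mSC-like clusters had it above the nm(R)SC-like clusters. Clusters 1 and 3 had 788.4 and 636.9 CPM in plate 1, then 592.3 and 410.9 CPM in plate 2, against 370.9 to 430.5 CPM and 256.9 to 312.7 CPM in the nm(R)SC-like clusters.

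Other abundant subunits had smaller fitted ratios. Atp5b, the catalytic beta subunit of ATP synthase, had the highest nuclear read share, at 1250, 964.5, 1106 and 1188 CPM in the 4 sums (nm(R)SC-like and mSC-like of plate 1, then of plate 2). Cox4i1, the ubiquitous isoform of subunit 4 of cytochrome c oxidase, was at 834.9, 806.0, 604.9 and 653.2 CPM, and Cox6a1 at 407.3, 526.5, 376.7 and 365.4 CPM. Uqcrc1, a core protein of complex III, was at 274.2 and 297.0 CPM in plate 1 and at 640.8 and 666.0 CPM in plate 2. Its small partner Uqcr11 was at 339.1, 300.2, 250.9 and 288.3 CPM, the accessory complex I subunit Ndufb8 at 374.9, 377.7, 357.1 and 337.7 CPM, and Atp5c1, the gamma subunit in the central stalk of ATP synthase, at 500.8, 431.9, 336.5 and 460.1 CPM. The fitted log2 ratios of these 7 genes ran from 0.03 to 0.33. Levels were also scaled by transcript length, as RPKM (CPM per kilobase of the longest transcript marked as principal in the annotation). Cox4i1 was then the highest nuclear gene in each of the 4 sums (790.7 to 1091), and the order below it differed between the sums. Cox6a1 ranged from 639.9 to 922.1, Uqcr11 from 563.8 to 762.1 and Atp5b from 503.4 to 652.6. Exons of Cox4i1 overlap Emc8 on the other strand and those of Ndufb8 overlap Gm20538 on the same strand, and the strand setting of the counting is unknown, so their counts may include reads of these neighbours.

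**Figure D2:**
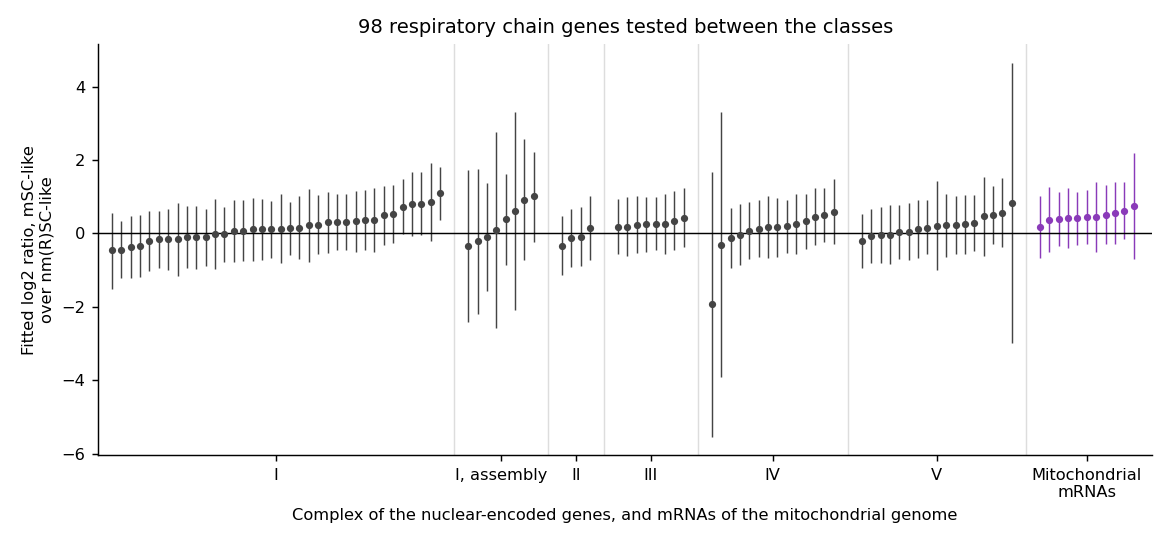
Fitted log2 ratio of mSC-like over nm(R)SC-like cells for each of the 98 respiratory chain genes tested, with its 95% interval (edgeR, plate as a block, 2 plates), ordered within each complex. The interval of 1 gene, Ndufv2 at the right end of complex I, lies wholly above 0, all 11 mitochondrial mRNAs have ratios between 0.18 and 0.76, and the widest intervals belong to genes of few reads such as Cox6b2 (−1.93) and Atp5s (0.84).

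The mRNAs of the mitochondrial genome gave different ratios in the plates. Together they took 3.046% (nm(R)SC-like) and 2.853% (mSC-like) of the reads in plate 1, and 1.336% and 1.959% in plate 2. The log2 ratio of mSC-like over nm(R)SC-like was therefore −0.09 in plate 1 and 0.55 in plate 2, 0.23 ± 0.46 (SD, n = 2), and the difference in plate 2 (1.47-fold) was not seen in plate 1 (0.937-fold). All 11 mRNAs with enough reads for the test had a ratio above 0 in plate 2, and 4 of them also in plate 1 (all genes 25.0% above 0 in both). The plate 2 ratio of mt-Co3 rested on 23 reads of 1 nm(R)SC-like cell and 24 reads of 1 mSC-like cell. That of mt-Atp6 rested on 66 and 36 reads. By complex the plate 2 ratios were 1.60-fold for the 7 mt-Nd mRNAs of complex I, 1.42-fold for mt-Cytb of complex III and 1.36-fold for the mt-Co mRNAs of complex IV. In plate 1 they were 1.02-fold, 0.986-fold and 0.746-fold. Nuclear-encoded subunits of the same complexes gave 1.02-fold, 1.11-fold and 1.10-fold in plate 2. The smallest adjusted p among the mitochondrial mRNAs was 0.547 (edgeR), and their intervals were wide, reaching a median of 0.82 to either side.

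The makeup of the mSC-like class also differed between the plates. Its part in the different ratios was not tested, and with 2 plates it cannot be told apart from other differences between them. Cluster 1 and cluster 3 are both mSC-like, and mitochondrial mRNAs took 4.062% of the reads of cluster 1 and 2.060% of those of cluster 3 in plate 1, and 2.363% and 0.905% in plate 2. Cluster 1 had the highest and cluster 3 the lowest share of the 5 clusters in both plates, so the 2 nm(R)SC-like clusters of most cells, 0 and 2, lay between them, at 2.754% and 3.287% in plate 1 and at 1.265% and 1.393% in plate 2. The class was mostly cluster 3 in plate 1 and mostly cluster 1 in plate 2. With cluster 1 alone as the mSC-like class, the log2 ratio over the nm(R)SC-like class was 0.41 (plate 1) and 0.82 (plate 2). The values in single cells had the same order. The median share was 3.84% (quartiles 3.07% and 4.66%) in the 74 cells of cluster 1 and 1.75% (1.25% and 2.47%) in the 97 cells of cluster 3 in plate 1, and 2.12% (1.71% and 2.81%) in 61 cells and 0.811% (0.487% and 1.00%) in 22 cells in plate 2. The quartile ranges of the 2 clusters did not overlap in either plate.

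**Figure D3:**
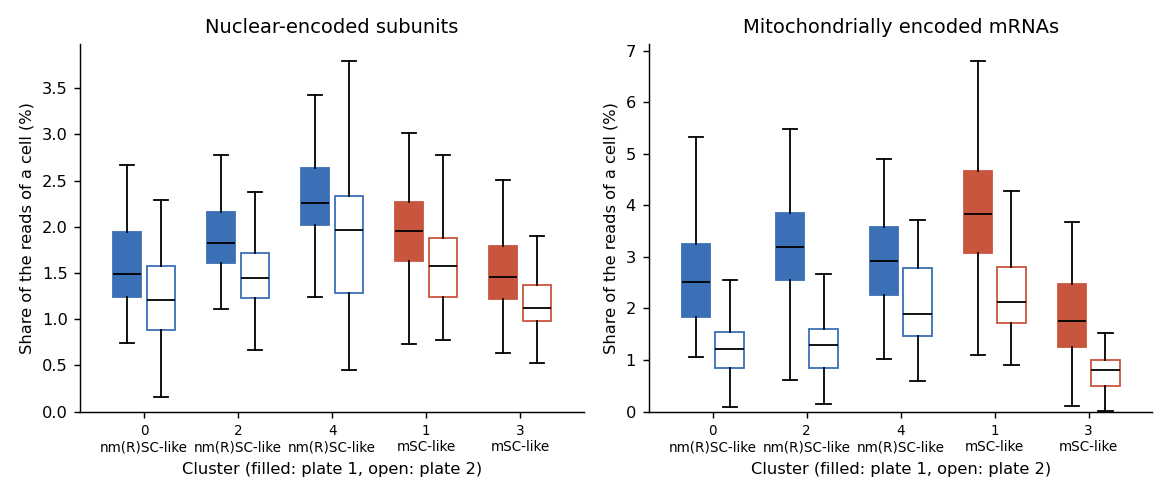
Share of a cell's reads in the 83 nuclear-encoded subunits (left) and in the 13 mitochondrially encoded mRNAs (right), by cluster, for nm(R)SC-like (blue) and mSC-like (red) clusters of plate 1 (filled) and plate 2 (open). Boxes give quartiles and medians over cells, whiskers the most distant cells within the usual box plot limit, and cells beyond are not drawn. In both plates the median mitochondrial share is highest in cluster 1 (3.84% and 2.12%) and lowest in cluster 3 (1.75% and 0.811%), and the nuclear share is lower in cluster 3 than in cluster 1.

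Between these clusters the order held for single genes. The mRNA of cytochrome b, mt-Cytb, measured 11180 CPM in cluster 1 against 6801 CPM in cluster 3 (plate 1), and 8597 against 3517 CPM (plate 2). The catalytic subunit of cytochrome c oxidase, mt-Co1, was at 10040 and 3125 CPM in plate 1 and at 6422 and 2041 CPM in plate 2, and mt-Nd5, one of the proton-pumping subunits of complex I, at 1441 and 483.3 CPM and at 405.2 and 178.8 CPM. Of the 11 mRNAs at 10 CPM or more, 10 were lower in cluster 3 in both plates (all genes 38.7%) and 0 were higher in both (all genes 21.7%), the exception being mt-Co3, which had almost no reads in plate 2. The median log2 ratio of cluster 3 over cluster 1 was −0.88 in plate 1 and −1.21 in plate 2 for the 11 mRNAs, −0.26 and −0.57 for 75 nuclear-encoded subunits, and −0.20 and −0.45 for all 8325 genes at 10 CPM or more. Of the 75 nuclear-encoded subunits 41 (54.7%) were lower in cluster 3 in both plates and 4 (5.33%) higher. By complex the counts lower in both plates were 16 of 36 for complex I, 1 of 4 for complex II, 6 of 8 for complex III, 6 of 11 for complex IV and 12 of 16 for ATP synthase, among them Atp5b at 1336 and 721.2 CPM in plate 1 and at 1329 and 819.3 CPM in plate 2. The 11 mSC naming markers summed to 40300 CPM in cluster 1 and 82200 CPM in cluster 3 of plate 1, and to 49300 and 119000 CPM in plate 2, and the part of these reads in the lower shares was not tested. The respiratory chain genes took no part in the clustering, but clusters are groups made from the same cells, so these are values and not a test. The clusters were made from genes that are part of the values for all genes, so those values are not held out in the same way.

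The shares of the 2 sets of genes were also set against each other across cells. Spearman's rank correlation between the nuclear-encoded and the mitochondrial share of a cell was 0.45 over 171 mSC-like cells of plate 1 and 0.52 over 83 of plate 2, whereas in the nm(R)SC-like class it was 0.19 over 169 cells and 0.23 over 251. The classes pool clusters that differ in both shares. Within single clusters it was 0.34 and 0.39 in cluster 1, 0.29 and 0.37 in cluster 3, 0.05 and 0.15 in cluster 0, 0.36 and 0.04 in cluster 2 and 0.09 and 0.20 in cluster 4 (plate 1, then plate 2). Both shares of a cell come from the same library and depth. Medians per class repeated the order of the sums. The nuclear share was 1.79% in nm(R)SC-like and 1.68% in mSC-like cells of plate 1 and 1.35% and 1.47% in plate 2, and the mitochondrial share 2.82% and 2.71% in plate 1 and 1.29% and 1.89% in plate 2. When each cell was thinned to 50000 reads, a median of 54 of the 83 subunits was detected in 135 nm(R)SC-like cells and of 53 in 141 mSC-like cells of plate 1, and of 30 in 235 and 37 in 79 cells of plate 2. Cells with fewer reads were left out, 34 and 30 in plate 1 and 16 and 4 in plate 2 in the same order. Without thinning, the medians over all cells of the classes were 59.0 and 59.0 in plate 1 and 46.0 and 51.0 in plate 2.

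The 13 mitochondrial mRNAs are cut out of long transcripts that span the mitochondrial genome. In RPKM, mt-Cytb was highest in each of the 4 sums (4427 to 7570) and mt-Nd1 next (2619 to 6632). The order below them differed between the plates. In nm(R)SC-like cells mt-Co1 stood at 5101 in plate 1 and 2470 in plate 2, mt-Nd4l at 4859 and 1001, mt-Nd4 at 2289 and 769.0, and mt-Nd2 at 1347 and 272.2. Lower levels in the same cells were those of mt-Nd3 (574.0 and 94.3), mt-Nd5 (443.9 and 144.0), mt-Atp6 (428.8 and 0.643), mt-Nd6 (322.3 and 72.9) and mt-Co3 (143.8 and 0.195). For mt-Co2, which codes for the copper subunit of cytochrome c oxidase, 4 reads were counted in all 674 cells, and for mt-Atp8, a small subunit of ATP synthase, 17. The annotated mRNAs of mt-Atp8, mt-Atp6 and mt-Co3 overlap in sequence, as do those of mt-Nd4l and mt-Nd4, and mt-Nd6 lies opposite mt-Nd5 on the other strand, so reads in these stretches can belong to either gene.

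Several of the least read of these mRNAs have copies in the nuclear genome. A block on chromosome 1 (24611535 to 24616197, minus strand, GRCm38) is annotated as a row of unprocessed pseudogenes. Each of mt-Nd4l, mt-Nd3, mt-Co3, mt-Atp6 and mt-Co2 has 1 there, as do parts of mt-Nd4 and mt-Co1. Over 681 aligned bases mt-Co2 and its copy Gm28661 differed at 0 positions, and all of the 50-base stretches of mt-Co2 occur in another annotated gene. The shared percentage was 99.9% for mt-Co3, 99.5% for mt-Atp6, 98.8% for mt-Nd4l, 98.0% for mt-Nd3, 62.2% for mt-Nd4 and 51.1% for mt-Co1. It was 8.19% for mt-Nd2 and 7.61% for mt-Nd5, and 0% for mt-Nd1, mt-Nd6, mt-Cytb and mt-Atp8, where only annotated genes were searched. None of these copies is a gene of the count table. How reads that align to several places were treated is not stated, and its part in these levels was not tested. The first 60 bases of 2 of these mRNAs and of their copies are shown, 5′ to 3′, to let the likeness be seen. Capitals mark the base that differs between mt-Nd3 and its copy (T3C, counted from 1 at the first base of mt-Nd3).
mt-Co2: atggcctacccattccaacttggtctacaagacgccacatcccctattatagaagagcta
Gm28661: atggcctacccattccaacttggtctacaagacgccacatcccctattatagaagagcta
mt-Nd3: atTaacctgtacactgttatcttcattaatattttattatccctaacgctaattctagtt
Gm28438: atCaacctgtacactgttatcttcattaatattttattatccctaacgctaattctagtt

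Of the mRNAs that share nearly all stretches, mt-Nd4l was at 1443 and 1429 CPM in plate 1 and at 297.4 and 440.6 CPM in plate 2 (nm(R)SC-like first). Among the 93 nuclear-encoded genes, 43 shared at least 1 stretch of 50 bases with a gene elsewhere, mostly processed pseudogenes, and 11 shared 10% or more, led by Atp5g2 (36.7%), Uqcrb (25.4%), Cox7c (22.1%) and Ndufs5 (21.7%). Levels of these genes between each other are uncertain for that reason, while their ratios between classes rest on the same counting.

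**Figure D4:**
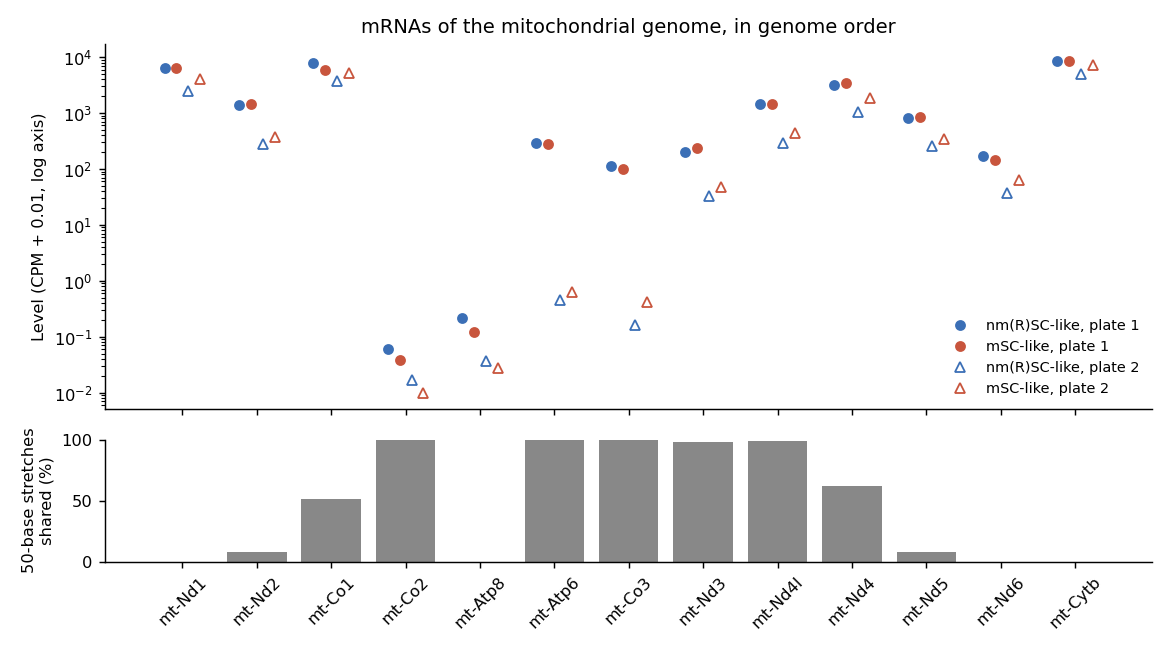
Level of each mRNA of the mitochondrial genome in CPM (0.01 CPM added, log axis) in nm(R)SC-like (blue) and mSC-like (red) cells of plate 1 (filled circles) and plate 2 (open triangles), and below it the share of its 50-base stretches that occur in another annotated gene (in percent). mt-Co2 has 4 reads in all kept cells and 100% shared stretches, and mt-Atp6 and mt-Co3 fall from between 101.6 and 292.0 CPM in plate 1 to under 1 CPM in plate 2.

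To describe how far the plates differ, each plate being 1 sample, levels were compared at a fold of 4 (on CPM + 1) with the same sign in both classes and with no test. Among 96 respiratory chain genes at 10 CPM or more, 3 were lower in plate 2 past this fold (all genes 1.20%) and 0 were higher (all genes 0.156%). The 3 were mt-Atp6 at 292.0 and 282.8 CPM in plate 1 and 0.438 and 0.624 CPM in plate 2, mt-Co3 at 112.7 and 101.6 CPM and 0.153 and 0.416 CPM, and mt-Nd3 at 199.8 and 238.0 CPM and 32.8 and 46.9 CPM. These 3 share 98.0% to 99.9% of their stretches with another annotated gene. So does mt-Nd4l (98.8%), which did not pass the fold in both classes (log2 ratios −2.27 and −1.70, nm(R)SC-like first). Of mRNAs with few or no shared stretches, mt-Nd2 (8.19%) stood at −2.30 and −1.90 and mt-Nd6 (0%) at −2.12 and −1.20. The part of the copies was not tested. In plate 2 the reads of mt-Co3 came from 2 cells with 24 and 23 reads, whereas 153 of 171 and 157 of 169 cells of plate 1 had reads of it. The other 8 mitochondrial mRNAs were also lower in plate 2 in both classes, from a mean log2 ratio of −0.51 for mt-Cytb and −0.61 for mt-Co1 to −2.10 for mt-Nd2.

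Among the nuclear-encoded genes 55 of 85 were lower in plate 2 in both classes (64.7%, all genes 37.2%) and 11 were higher in both, with a median log2 ratio of −0.52 against −0.20 for all 8982 genes. Most of these mRNAs are short by annotation, with a median transcript length of 861 bases against 2892 bases for all genes at that level. Length here is that of the longest transcript marked as principal in the annotation, which the cells need not use. The lowest was Uqcrb (535 bases), a small subunit of complex III, at 344.2 and 330.9 CPM in plate 1 and at 76.3 and 86.6 CPM in plate 2, and the highest was Uqcrc1 of the same complex (1653 bases). Uqcrb was named after its values were seen. For 41 genes of 500 to 1000 bases the median log2 ratio was −0.87, for 30 genes of 1000 to 2000 bases −0.12, and for 9 longer ones −0.47. By this rule of length the longer ones included Ndufb2 (4371 bases), Ndufab1 (3479 bases) and Atp5g1 (4715 bases). All genes of the same 3 ranges gave −0.40, 0.00 and −0.24, so the respiratory chain genes lay below the median of all genes of like annotated length in each. The 5 genes under 500 bases gave −0.92, above the −1.14 of all genes that short. Spearman's rank correlation of ratio and length was 0.44 across the 85 genes and −0.14 across 8971 genes, which share libraries and are not independent. Exon overlap, shared stretches and base composition were not matched in this comparison.

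**Figure D5:**
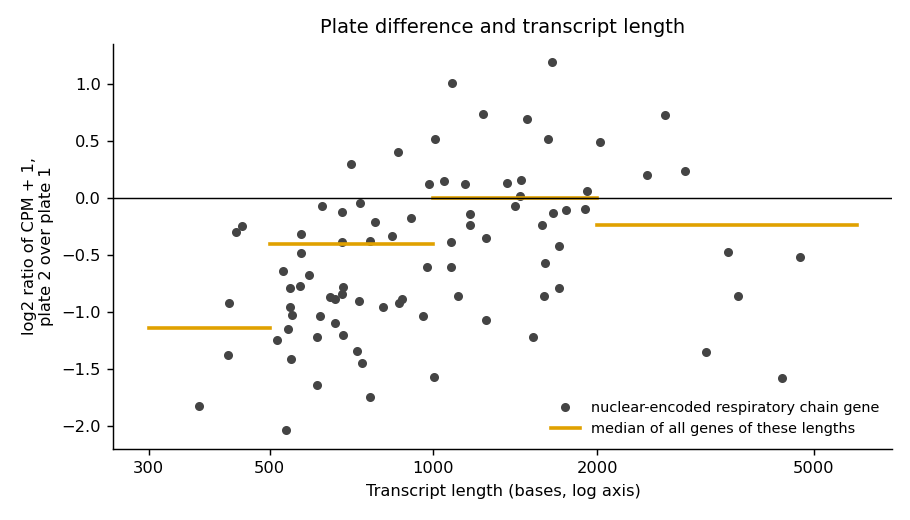
Log2 ratio of CPM + 1 of plate 2 over plate 1 (mean of the 2 classes) against transcript length (bases, log axis) for 85 nuclear-encoded respiratory chain genes, with the median over all genes in 4 ranges of length (yellow lines, drawn to the limits of the plot for the outer ranges). Most genes under 1000 bases lie below 0, and the median of the 41 genes of 500 to 1000 bases is −0.87.

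Several subunits of cytochrome c oxidase, and the related Ndufa4, exist as a common and a tissue-restricted isoform, and reads came mostly from the common one. Cox6a2, Cox7b2, Cox8b and Cox8c had 0 reads in all 674 cells, where 3 reads in a sum would correspond to 0.0199 to 0.0843 CPM. Cox4i2, the lung and hypoxia-related form of subunit 4, had 62 reads, 59 of them in 1 cell, and Ndufa4l2 had 12 reads in 3 cells. The intervals of these counts cover counting error only, and reads of amplified cDNA are not independent molecules. Heart and muscle Cox7a1 made up 3.75% and 2.73% of the reads of the Cox7a1 and Cox7a2 pair in nm(R)SC-like and mSC-like cells of plate 1 and 4.86% and 3.76% in plate 2. Its level was 11.77, 7.53, 6.58 and 5.31 CPM, in 50 cells in all.

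Cox6b2, known as the testis form of subunit 6b (chromosome 7, 4751792 to 4753094, minus strand), was lower in the mSC-like sums of both plates, but without passing the test. In plate 1 it stood at 22.63 CPM (nm(R)SC-like) against 5.96 CPM (mSC-like), and in plate 2 at 6.31 against 1.30 CPM. By cluster, plate 1 had 3.27, 37.3 and 27.8 CPM in clusters 0, 2 and 4, against 9.57 and 3.58 CPM in clusters 1 and 3. The largest nm(R)SC-like cluster, 0, was thus below both mSC-like clusters in plate 1. In plate 2 the values were 5.30, 9.57 and 3.19 CPM against 1.80 and 0 CPM. The share of Cox6b2 in the pair with Cox6b1 was 4.15% (exact 95% interval 3.89% to 4.43%) and 1.57% (1.37% to 1.80%) in plate 1, and 3.16% (2.96% to 3.36%) and 0.544% (0.428% to 0.682%) in plate 2. Cells with a read of it numbered 31 of 169 and 18 of 251 (nm(R)SC-like) and 11 of 171 and 2 of 83 (mSC-like), and single cells held much of its reads. In plate 1, 1 cell held 426 of the 873 reads of the nm(R)SC-like sum, and in plate 2, 1 cell held 74 of the 75 reads of the mSC-like sum. Without the highest cell of each sum the levels were 12.4 against 3.93 CPM in plate 1 and 5.21 against 0.0174 CPM in plate 2, the last from 1 read. The fitted log2 ratio was −1.93 ± 1.64 (SE, edgeR adjusted p = 0.763), with an interval of −5.53 to 1.67. Its common partner Cox6b1 was at 522.1, 373.1, 193.6 and 237.6 CPM. The other common isoforms Cox7a2, Cox7b, Cox8a and Ndufa4 had fitted log2 ratios from −0.12 (Ndufa4) to 0.50 (Cox8a), and none passed the test.

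Among 225 genes tested that work next to the respiratory chain 2 were called (0.889%), a smaller share than the 3.72% of all genes. Of 9 electron carriers such as cytochrome c, 37 assembly factors outside the symbols above, 13 genes of coenzyme Q synthesis, 23 genes of pyruvate dehydrogenase and the citric acid cycle, and 28 genes of mitochondrial genome transcription and biogenesis, 0 were called. Their median fitted log2 ratios were 0.23, 0.30, 0.20, 0.16 and −0.11. Among 37 carriers, import and membrane genes 1 was called, Ucp2, a carrier of the inner membrane, at 101.3 and 462.9 CPM in plate 1 and at 65.9 and 214.0 CPM in plate 2, which is 2.12 ± 0.37 (SE) as a fitted log2 ratio (edgeR adjusted p = 0.00824). Without cluster 3, which lacks a leading marker of its class, its ratio was 0.93 (adjusted p = 0.485). Among 78 genes of the mitochondrial ribosome 1 was called, Mrps6, at 40.6 and 181.6 CPM and at 19.2 and 111.9 CPM, with a ratio of 2.52 ± 0.45 (SE, edgeR adjusted p = 0.00928), and without cluster 3 of 2.21 (adjusted p = 0.0594). The exons of Mrps6 overlap Slc5a3 on the same strand and those of Ucp2 overlap Dnajb13 on the other, so reads of these neighbours may be included.

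The promoters of the nuclear-encoded genes were searched for 4 motifs of factors known for respiratory genes or for broad use, and for the TATA box. RefSeq promoters (GRCm38.p6, 250 bases before to 50 after the start) were found for 74 of the 93 genes. The palindrome bound by NRF1, whose letters are the capitals below, occurred in 7 of the 74 (9.46%, all 27025 promoters 0.96%). On either strand the ETS motif CCGGAAGT occurred in 5 (6.76%, all 3.93%), the YY1 motif in 5 (6.76%, all 0.70%), the CRE motif TGACGTCA in 4 (5.41%, all 1.78%) and the TATA box TATAAA in 7 (9.46%, all 14.14%). The promoters of these genes had a higher GC content than all promoters (median 57.5% and 52.7%), and the part of this in the shares was not tested. A match is a description of the letters and not a bound site. The 7 NRF1 matches are shown with 10 bases on each side, on the strand of the gene, the match in capitals.
Atp5g2 (chr15:102671070-102671099, minus): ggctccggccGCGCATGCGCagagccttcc
Atp5k (chr5:108434430-108434459, minus): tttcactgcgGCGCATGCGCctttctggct
Cox6a1 (chr5:115349101-115349130, minus): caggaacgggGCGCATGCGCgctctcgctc
Ndufa11 (chr17:56717692-56717721, plus): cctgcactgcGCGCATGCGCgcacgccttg
Ndufaf4 (chr4:24897960-24897989, plus): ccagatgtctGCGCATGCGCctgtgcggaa
Ndufaf5 (chr2:140170652-140170681, plus): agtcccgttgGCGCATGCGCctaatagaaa
Uqcrc1 (chr9:108936668-108936697, plus): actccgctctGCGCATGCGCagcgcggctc
None of the 7 genes was called between the classes. Their fitted log2 ratios were 0.21, 0.47, 0.33, 0.33, 0.92, 0.62 and 0.26 in the order shown, each with an interval that spans 0.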

How the data were processed

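The authors sorted single cells, made Smart-Seq2 libraries and deposited the raw counts (whole reads per gene) of all cells as 1 table. Per the labels, reads were aligned with STAR 2.6.1c to GRCm38.p5 and counted with featureCounts. The settings for strand and for reads with several alignments are not given in the sources used here. The members and lists were chosen with earlier results of these data known.

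Cells with 1500 or more genes were clustered after integration of the plates (Seurat 5.3.0, 12 dimensions, resolution 0.5) without 332 respiratory chain and other mitochondrial genes. Classes were rebuilt from 20 markers, which were not tested, and may differ from the study's. All other genes were split into 2 sets, each tested in classes made from the other. Cells of unnamed clusters were left out of these classes, 17 and 14 (plates 1 and 2) with 1 set and 21 and 20 with the other. The classes used for the respiratory chain genes had 0 unnamed cells. The median CPM ratios of all genes (−0.20) also come from these classes, which genes among them helped to make. Wells held 1 sorted cell each, and doublets were not called. Counts were summed per plate and class (4 sums) and tested with edgeR 4.0.16 in R 4.3.3 (quasi-likelihood, TMM, filterByExpr minimum 10, Benjamini-Hochberg over all genes, adjusted p limit 0.05, blocked by plate with residual degrees of freedom of 1). DESeq2 1.42.0, other scalings, filters and clusterings were alternatives. Pairing comes from the design: both classes of a plate come from the same mice. Shares within isoform pairs have exact binomial intervals. Annotation came from GENCODE M21. Transcript length is that of the longest transcript marked as principal there, or of the longest transcript where none is marked.

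Genes were named where called, as the 2 most abundant subunits of each complex, as isoform pairs, as mitochondrial mRNAs, as complex II and as called genes of other lists. The general SC marker list is not reported here.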

Additional observations from a re-analysis of the deposited data

Results flagged for a closer look

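Cells with under 1500 detected genes were left out of the main comparisons, and their mitochondrial mRNAs were flagged as data outside the main measurement. The median share of reads in these mRNAs was 3.25% in 44 such cells of plate 1 and 2.8% in 50 of plate 2. The kept cells of plate 1 had medians of 2.82% (nm(R)SC-like) and 2.71% (mSC-like), and those of plate 2 medians of 1.29% and 1.89%. Their depth was low, with medians of 2130 (plate 1) and 2450 (plate 2) reads. The nuclear-encoded subunits took 1.87% and 2.25% of their reads. The cause was not tested.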

How the results depend on the processing

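The count of respiratory chain genes called was 0 and stayed 0 under 11 alternatives, the fit with no replicate block included, and was 1 with DESeq2 (Ndufv2). Pairing by plate raised the count over all genes, which was 488 with the block and 198 without it. It was 1632 with DESeq2, 825 with cells thinned to 50000 reads, 165 when all genes were used for clustering, 249 and 281 with minimums of 1000 and 2500 genes per cell, 280 without integration and 223 with only clusters that had a leading marker. Genes called in the other mitochondrial lists (2) were 7 with DESeq2, 1 with all genes in the clustering, with a minimum of 1000 genes and with leading-marker clusters, and 0 with a minimum of 2500 genes and with no replicate block. Ucp2 then missed the limit in 4 alternatives and Mrps6 in 4, in the direction reported. With leading-marker clusters both missed it (edgeR adjusted p of 0.485 and 0.0594), so the 1 gene called there was another.

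The mean log2 ratio of the nuclear-encoded sum (0.01) was −0.07 with all genes in the clustering, −0.11 and −0.13 with minimums of 1000 and 2500 genes and 0.14 with leading-marker clusters. With each replicate left out in turn it was −0.04 and 0.05, and that of the mitochondrial mRNAs −0.09 and 0.55. The latter (0.23) ran from 0.06 to 0.62 over the other alternatives. The count past the plate rule (3, all genes 1.36%) was 22 at 2-fold (all genes 11.9%) and 6 with all kept cells of a plate together (4.51%). With 1 plate left out no test could be made. The cause of these shifts was not tested. The alternatives for all genes, isoform pairs, other lists and without the cell-cycle cluster were chosen after seeing the data. With 2 plates, a nuclear gene's interval reached a median of 0.81 (log2) to either side.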
